A study of Homo sapiens with 24 samples.

Results

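The data are ATAC-seq peaks around PROM1 and 7 other genes whose products are used to mark mammary stem and progenitor cells: CD24, CD44, ITGA6, KIT, ALDH1A1, ALDH1A3 and SOX9. ATAC-seq measures open chromatin by the adapters that the Tn5 transposase inserts into it. A peak belonged to a gene when its middle lay within 50 kb of the gene's hg38 interval, which gave 114 of the 189403 peaks in the deposited table: 30 for PROM1, 24 for CD44, 12 for CD24, 13 for ITGA6, 4 for KIT, 2 for ALDH1A1, 15 for ALDH1A3 and 14 for SOX9. PROM1 was chosen for its large difference between the media, so that difference is described here without a test. Of the 114 peaks, 98 passed the filter on low counts and were tested, 27 of them for PROM1 and 71 for the 7 other genes, and the other 16 averaged under 1 CPM, the count relative to the library's total after TMM scaling.

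The 24 libraries, 4 in each of 6 groups, came from T47D, a luminal breast cancer cell line with estrogen receptor. Complete medium for 1 day was followed by 1 h of fulvestrant, raloxifene or tamoxifen (100 nM each) or of vehicle (0.1% DMSO). Starved medium (without phenol red, serum stripped with charcoal) for 3 days was followed by 1 h of estradiol (1 nM) or of vehicle. Days in medium and the number of cells seeded differed along with the media, and their parts cannot be told apart. Fulvestrant is a receptor degrader, and raloxifene and tamoxifen are receptor modulators that act as antagonists in breast cells. Of the vehicle libraries in complete medium, replicates 3 and 4 carry a treatment label naming fulvestrant but a title and description naming DMSO, and were grouped by title. Totals ran from 434598 to 12140005 counts per library, and the lowest were fulvestrant replicate 4 (434598) and starved vehicle replicate 3 (2422981). The labels do not say whether replicates were grown separately, and the p-values rest on how far these libraries spread. Luminal markers were open at their starts: 6 of 8 (ESR1, PGR, GATA3, FOXA1, KRT8 and XBP1) had a peak there, up to 122 CPM, while the start of KRT18 and KRT19 was not in the table of starts used. Among 9 basal and mesenchymal markers 1 had a start peak (FN1, 0 to 10.9 CPM), among 5 blood markers 0 and among 3 endothelial markers 1 (KDR, 2.21 to 4.01 CPM), with the caveat that 3, 3 and 2 of these genes also have no start in that table.

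PROM1 encodes prominin-1 (CD133), a membrane glycoprotein of cell protrusions that is used to isolate stem and progenitor cells, and in the mouse mammary gland it marks luminal cells with hormone receptors. CD24 and CD44 are surface glycoproteins, and human breast cancer cells with high CD44 and low CD24 have been described as tumour-initiating. ITGA6 (CD49f) and KIT are surface receptors used to sort mammary progenitors, ALDH1A1 and ALDH1A3 make retinoic acid from retinaldehyde, and SOX9 is a transcription factor of luminal progenitors. Estradiol acts through the estrogen receptor, which binds DNA mostly at enhancers away from gene starts, at palindromes of GGTCA.

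The starts of these genes differed in base composition and in whether they were open, and 4 of them are shown to let the open and closed ones be compared. The windows are from RefSeq (GRCh38.p14), run from 250 bases before to 50 bases after a start, and stand 5′ to 3′ on the gene's strand. They matched 7 of the 8 genes by symbol with 13 windows, and SOX9 was not among them. Capitals mark matches, on either strand, to the estrogen response element (GGTCA and its inverted copy 3 bases apart), to GGTCA alone, which lies within it, to the AP-1 site TGANTCA, to the TATA box TATAAA, to the CCAAT box and to the GC box GGGCGG.
ALDH1A3, chr15:100879581-100879880, plus strand: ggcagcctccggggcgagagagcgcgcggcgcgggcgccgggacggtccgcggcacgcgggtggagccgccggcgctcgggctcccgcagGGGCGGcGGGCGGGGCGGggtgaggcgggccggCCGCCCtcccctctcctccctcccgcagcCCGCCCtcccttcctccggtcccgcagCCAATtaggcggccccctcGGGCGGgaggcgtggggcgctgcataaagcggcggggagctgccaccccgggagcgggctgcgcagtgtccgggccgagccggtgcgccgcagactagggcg
ITGA6, chr2:172427336-172427635, plus strand: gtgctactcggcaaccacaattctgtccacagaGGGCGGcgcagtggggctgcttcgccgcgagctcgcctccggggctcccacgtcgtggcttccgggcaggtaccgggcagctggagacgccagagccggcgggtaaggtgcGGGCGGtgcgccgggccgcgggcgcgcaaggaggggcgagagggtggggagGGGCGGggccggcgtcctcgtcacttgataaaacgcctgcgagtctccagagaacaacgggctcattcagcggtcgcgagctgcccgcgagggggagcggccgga
PROM1, chr4:16083287-16083586, minus strand: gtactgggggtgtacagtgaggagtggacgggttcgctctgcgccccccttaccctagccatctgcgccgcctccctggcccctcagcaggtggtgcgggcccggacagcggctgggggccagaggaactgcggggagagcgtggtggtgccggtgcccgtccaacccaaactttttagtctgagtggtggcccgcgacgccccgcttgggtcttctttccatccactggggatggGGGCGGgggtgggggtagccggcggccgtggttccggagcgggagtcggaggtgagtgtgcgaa
ALDH1A1, chr9:72953004-72953303, minus strand: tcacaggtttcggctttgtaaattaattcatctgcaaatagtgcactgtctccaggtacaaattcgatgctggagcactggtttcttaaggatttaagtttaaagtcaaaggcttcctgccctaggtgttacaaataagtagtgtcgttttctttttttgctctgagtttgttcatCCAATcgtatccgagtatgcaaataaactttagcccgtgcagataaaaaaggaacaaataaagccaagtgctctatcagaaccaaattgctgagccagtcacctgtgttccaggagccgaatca
The ALDH1A3 and ITGA6 windows were the only ones of the 13 that a peak overlapped, over 266 and 158 bases. ALDH1A3 had 81.7% G and C and 6 GC boxes, and 98.6% of all 34943 windows had a lower G and C content. ITGA6 had 72.0% and 3 GC boxes, the PROM1 window shown had 69.0% and 1 GC box, and ALDH1A1 had 40.3% and none of these 6 motifs except a CCAAT box, against a median of 58.7% over all windows. Openness did not simply follow G and C content. The KIT window (74.3%) and a CD24 window (73.7%), not shown, lay above ITGA6 and had no overlapping peak. No peak overlapped any of the 4 PROM1 windows, the nearest peak edge lying 550 bp from the one shown, and the nearest peak to the ALDH1A1 window was 21903 bp away. The estrogen response element matched in 0 of the 13 windows and in 0.0572% of all windows. GGTCA alone matched in 37.4% of all windows, the AP-1 site in 7.72%, the TATA box in 11.6%, the CCAAT box in 34.6% and the GC box in 44.9%.

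PROM1 carried its large differences at sites inside the gene, far from its starts. The site that led to its choice, chr4:16002365-16002791 (positions are those deposited, and the table gives no base, 0 or 1, for its starts), lies inside the gene and 73540 bp from the nearest start. Across groups, this site stood at 9.32, 12.6, 9.71 and 6.28 CPM with fulvestrant, at 15.2, 11.6, 13.3 and 10.8 CPM with raloxifene and at 13.2, 12.6, 14.2 and 13.0 CPM with tamoxifen. It had 13.4, 10.0, 13.99 and 18.4 CPM with vehicle in complete medium, 2.50, 4.16, 6.55 and 5.14 CPM with estradiol and 0.231, 0.373, 0.401 and 1.27 CPM with vehicle in starved medium (replicates 1 to 4). All 16 libraries of complete medium lay above every starved vehicle library, and they overlapped the estradiol group only through the shallow fulvestrant replicate 4, whose 6.28 CPM rests on 4 counts. In order of their means, vehicle (13.95 ± 3.44 CPM, SD, n = 4 here and below), tamoxifen (13.25 ± 0.677) and raloxifene (12.7 ± 1.96) in complete medium overlapped each other. Fulvestrant (9.47 ± 2.58) overlapped vehicle and raloxifene above it and, by that 1 library, estradiol (4.59 ± 1.70) below it, and estradiol did not overlap starved vehicle (0.570 ± 0.476). In bulk libraries, fewer cells with an open site and a less open site per cell cannot be told apart.

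Between the vehicle libraries of the media, the values that chose the gene, the log2 fold change was 4.36 (SE 0.310), rank 11 among the rises of all 156745 tested peaks. The same site could also be compared in the 16 libraries outside the vehicle groups, the 3 antagonist groups in complete medium against estradiol in starved medium, where agents differ along with the medium. It was higher there by 1.34 on the log2 scale (SE 0.165, edgeR quasi-likelihood adjusted p = 5.6e-10), and by 1.85 in replicates 1 and 2 and 0.90 in replicates 3 and 4 fitted alone. Whether the choice of PROM1 also drew on these libraries is not stated, and all libraries share 1 fit. The p-values of PROM1 sites in this comparison may thus not be independent of the choice.

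**Figure D1:**
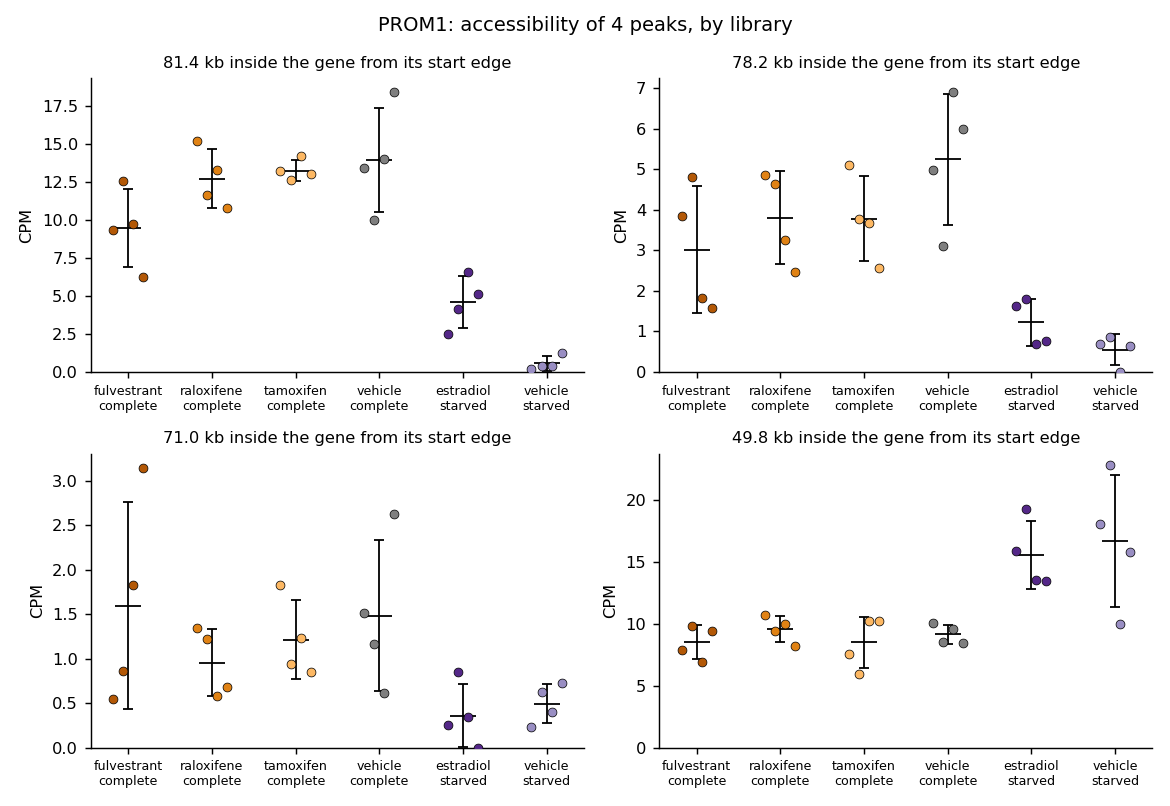
Accessibility (CPM, linear axis from 0) of 4 peaks inside PROM1 in the 24 libraries, 1 panel per peak in the order of their positions; points are replicates 1 to 4 from left to right, the bar is the mean and whiskers the SD. The first peak runs from under 1.28 CPM in starved vehicle to 18.4 CPM in complete vehicle, and the last is higher in starved medium.

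The same PROM1 site was higher with estradiol than with vehicle in starved medium. At 4.59 ± 1.70 CPM with estradiol and 0.570 ± 0.476 CPM with starved vehicle, every estradiol library lay above every vehicle library, as at 2.49% of all tested peaks. The log2 fold change was 2.82 (SE 0.394, 95% interval 2.03 to 3.60, edgeR adjusted p = 2.63e-07). The starved vehicle libraries are those in which the site was chosen as low, so this rise, its p-value and how well it held are not independent of the choice. The call was kept under each alternative processing tried and without each library, with fold changes of 2.42 to 3.86. It was 3.44 in replicates 1 and 2 and 2.42 in replicates 3 and 4 fitted alone. With estradiol the site stayed below vehicle in complete medium, with a log2 fold change of -1.54 (edgeR adjusted p = 1.27e-09, SE 0.188). That comparison uses the complete vehicle libraries in which it was chosen as high, so its p-value is not independent of the choice either. Over all 98 tested peaks of the 8 genes, this chosen site was the 1 peak that rose with estradiol and 0 fell, against 0.835% of all peaks called, 0.813% higher and 0.0223% lower. At an unadjusted p under 0.05 there were 10 of the 98, against 6% of all peaks. The other 26 PROM1 peaks had log2 differences of -0.71 to 0.84 with estradiol, with a smallest adjusted p of 0.485.

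The sites on either side of it inside PROM1 gave different values. The peak just beyond it, chr4:16001443-16001720, was at 15.9 ± 4.08 CPM with fulvestrant, 16.7 ± 1.54 with raloxifene, 16.4 ± 0.964 with tamoxifen and 16.02 ± 2.11 with vehicle in complete medium. In starved medium it was at 14.9 ± 1.70 CPM with estradiol and 14.9 ± 2.83 with vehicle, so all groups overlapped (antagonist groups against estradiol 0.17, 95% interval -0.05 to 0.388). On the other side, chr4:16005712-16005985 had 3.84, 4.81, 1.83 and 1.57 CPM with fulvestrant, 4.86, 4.65, 3.26 and 2.46 with raloxifene and 5.10, 3.78, 3.68 and 2.56 with tamoxifen. It had 4.97, 3.12, 6.89 and 5.98 CPM with complete vehicle, 1.63, 1.81, 0.680 and 0.771 with estradiol and 0.692, 0.870, 0 and 0.637 with starved vehicle. The starved libraries reached 1.81 CPM, and of the complete libraries only fulvestrant replicate 4, at 1.57 CPM, lay below that. It was higher in the antagonist groups than with estradiol by 1.64 (SE 0.291, edgeR adjusted p = 6.6e-06), a call kept under every alternative and left-out library tried. Without the libraries of complete medium this peak would not have passed the count filter, so its call is not independent of the filter. With estradiol against starved vehicle its log2 difference was 0.84 (95% interval -0.223 to 1.89, edgeR adjusted p = 0.963).

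Another PROM1 site, chr4:16012908-16013174, was weaker, at 1.60 ± 1.17 CPM with fulvestrant, 0.957 ± 0.381 with raloxifene and 1.21 ± 0.441 with tamoxifen against 0.361 ± 0.358 with estradiol (log2 fold change 1.44, SE 0.494, edgeR adjusted p = 0.0233). That call was lost in replicates 1 and 2 alone (0.89, adjusted p = 0.358) and without estradiol replicate 1, 3 or 4. The peak passed the count filter only through libraries of complete medium, so its call is not independent of the filter. The site chr4:16034103-16034373 went the other way. It had 7.86, 9.86, 6.96 and 9.42 CPM with fulvestrant, 10.8, 9.40, 10.0 and 8.19 with raloxifene and 7.58, 5.99, 10.2 and 10.2 with tamoxifen, against 15.9, 19.3, 13.5 and 13.5 with estradiol. The groups did not overlap, as at 4.24% of all tested peaks in this direction, and the log2 fold change was -0.80 (SE 0.128, edgeR adjusted p = 6.93e-07). With vehicle it averaged 9.17 ± 0.774 CPM under complete medium, against 16.7 ± 5.34 CPM under starved medium, and the log2 fold change of -0.95 is among the values that chose the gene.

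Over the 27 tested PROM1 peaks, 4 were higher and 2 lower in the antagonist groups than with estradiol, which is 22.2% called against 24.1% of all peaks. The other higher one, chr4:15963212-15963452 (log2 fold change 0.82, SE 0.232), lies over the start of FGFBP2, a neighbouring gene, and the other lower one, chr4:16123426-16123653 (-0.86, SE 0.322), lies upstream with TAPT1 as its nearest coding gene. Both calls were lost within each set of replicates alone, and the lower one also without fulvestrant replicate 1 or 3, raloxifene replicate 2 or 3, tamoxifen replicate 2, 3 or 4 or estradiol replicate 2 or 3. The 21 PROM1 peaks not called ranged from -0.68 to 0.67. Summed over all 30 peaks, PROM1 held 94.5 ± 13.3 CPM with fulvestrant, 103.5 ± 7.31 with raloxifene, 102.0 ± 4.07 with tamoxifen, 102.5 ± 6.55 with complete vehicle, 88.1 ± 4.53 with estradiol and 93.8 ± 9.06 with starved vehicle. The sums overlapped between the media. At the edge of the 50 kb window, the last peak inside (chr4:16133723-16134055, 49.9 kb) averaged 0.973 to 1.59 CPM over the groups, and the first outside (chr4:16140968-16141217, 57.1 kb) 38.1 to 44.8 CPM.

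**Figure D2:**
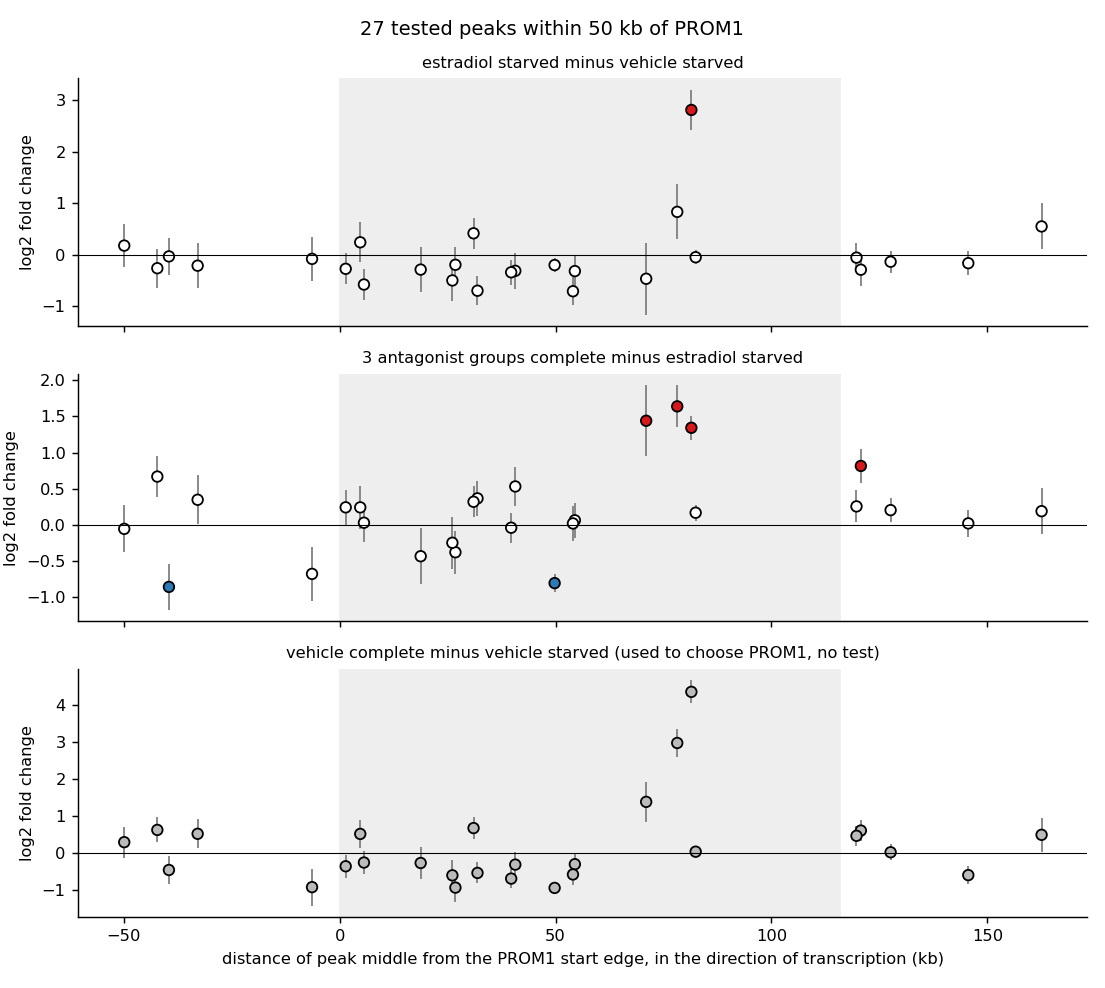
Log2 fold change (points, whiskers SE) of the 27 tested peaks near PROM1 by distance from the gene's start edge in kb, with the gene shaded; red and blue points were called higher and lower by edgeR, white ones were not called, and grey ones were not tested. The estradiol panel has 1 called peak, at 2.82, and the panel of the antagonist groups against estradiol has 4 red and 2 blue points.

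By the likeness of their pattern over the 24 libraries (Pearson r of log2 CPM, prior count 2, with 59590 candidate peaks of at least 5 CPM in some group), the 5 peaks closest to the leading PROM1 site lay near CXCL12, a chemokine gene (chr10:44173587-44173836, 196 kb away, r = 0.98), inside RALGAPA2 (chr20:20441335-20441565, r = 0.976), near SERPINA6, the gene of corticosteroid-binding globulin (chr14:94330930-94331264, 7.76 kb, r = 0.97), inside PHACTR1 (chr6:12844270-12844642, r = 0.966) and near IPMK (chr10:58102969-58103221, 88.4 kb, r = 0.966). The CXCL12 peak averaged 46.9 CPM with fulvestrant, 61.8 with raloxifene, 59.4 with tamoxifen and 60.4 with complete vehicle, 26.0 with estradiol and 8.34 with starved vehicle. These 5 are the highest of many, the libraries share depth and scaling, and the values are a description.

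CD24, a small surface protein anchored by a lipid, was lower in complete than in starved vehicle cells at 4 of 11 tested peaks and higher at 0 in edgeR. Of all peaks, 17.8% were called in this comparison, 7.93% higher and 9.91% lower. At an unadjusted p under 0.05 there were 5 of the 11, against 29.5% of all peaks. Beyond the 3′ end of the gene, chr6:106967030-106967376 had 1.84, 2.73, 2.06 and 1.61 CPM in complete and 3.80, 4.48, 3.21 and 6.64 CPM in starved vehicle libraries. The groups did not overlap, as at 8.31% of all tested peaks in this direction, and the log2 fold change was -1.26 (SE 0.286, edgeR adjusted p = 0.000651). Its call was lost in replicates 1 and 2 alone (-0.87, edgeR adjusted p = 0.125). Nearby, chr6:106967905-106968111 averaged 0.614 ± 0.303 CPM with complete and 1.88 ± 0.405 CPM with starved vehicle (-1.53, SE 0.451). The peak chr6:106976380-106976643 averaged 6.60 ± 1.43 CPM with complete and 9.92 ± 2.12 CPM with starved vehicle (-0.71, SE 0.181). Upstream, chr6:106979432-106979668 averaged 6.98 ± 0.750 CPM with complete and 10.9 ± 1.23 CPM with starved vehicle (-0.57, SE 0.183). Each of these 3 calls was lost in at least 1 set of replicates alone, the first also without complete vehicle replicate 3 and the last without replicate 2 of either vehicle group. The first and the last were also lost without the vehicle libraries whose labels conflict (edgeR adjusted p = 0.185 and 0.0909). The peak with the highest mean of the gene, chr6:106974628-106974878, averaged 13.4 ± 2.47 CPM over the complete and 10.8 ± 2.67 CPM over the starved vehicle libraries (0.22, 95% interval -0.0872 to 0.526). In the antagonist groups against estradiol, chr6:106967030-106967376 was again lower (-0.71, SE 0.234, edgeR adjusted p = 0.0178), but not in replicates 3 and 4 alone (-0.60, adjusted p = 0.301) or without estradiol replicate 2 or 4. The distant peak chr6:107021947-107022160 was lower (-1.33, SE 0.345), and 1 peak was higher, chr6:106997655-106997943 (0.66), a call lost under 6 of 13 alternatives and without fulvestrant replicate 1, raloxifene replicate 4, tamoxifen replicate 2 or 3 or estradiol replicate 2, 3 or 4. With estradiol, 4 of the 11 CD24 peaks, all below starved vehicle, reached an unadjusted p under 0.05, against 6% of all peaks. The smallest adjusted p of the CD24 peaks was 0.324 (edgeR).

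CD44, the receptor for hyaluronan, had no peak over its RefSeq start window, the nearest edge being 370 bp away. Between the vehicle groups 1 of its 19 tested peaks was higher and 1 lower in complete medium, against 17.8% of all peaks called. The lower one, chr11:35101310-35101521, had 0.757, 0.650, 0.720 and 0.730 CPM in complete and 2.88, 2.61, 0 and 1.64 CPM in starved vehicle libraries (log2 fold change -1.54, SE 0.415, edgeR adjusted p = 0.00446), where the 0 is the shallow replicate 3. Replicates 3 and 4 alone gave -0.88 (adjusted p = 0.533). The higher one, chr11:35216957-35217157 inside the gene, averaged 1.11 ± 0.514 CPM with complete and 0.297 ± 0.107 CPM with starved vehicle (1.96, SE 0.623), and its call was lost without complete vehicle replicate 3 or 4 or starved vehicle replicate 1 or 4. The call was also lost without the vehicle libraries whose labels conflict (1.38, edgeR adjusted p = 0.299). In the antagonist groups, 4 of the 19 were lower than with estradiol and 0 were higher in edgeR, against 24.1% of all peaks called, 10.2% higher and 13.9% lower. At an unadjusted p under 0.05 there were 6 of the 19, against 34.6% of all peaks. The clearest of the 4 was chr11:35275536-35275736, whose nearest coding gene is the glutamate transporter gene SLC1A2. It was at 5.56 ± 1.55 CPM with fulvestrant, 4.84 ± 1.52 with raloxifene and 5.41 ± 0.973 with tamoxifen against 8.30 ± 1.65 with estradiol (-0.72, SE 0.154, edgeR adjusted p = 0.000194). In replicates 1 and 2 alone it was -0.44 (adjusted p = 0.164).

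ITGA6, the laminin receptor subunit alpha-6, was open at its start under every condition. The start peak chr2:172427478-172427685 stood at 6.67 ± 4.78 CPM with fulvestrant, 10.2 ± 0.532 with raloxifene, 10.1 ± 1.95 with tamoxifen and 9.40 ± 1.22 with complete vehicle, and at 8.62 ± 1.01 with estradiol and 7.02 ± 1.98 with starved vehicle. The fulvestrant mean includes a 0 in the shallow replicate 4. Between vehicle groups it differed by 0.37 (95% interval -0.00538 to 0.745) and with estradiol by 0.24 (95% interval -0.139 to 0.612), neither called by edgeR. The most open peak of the window, chr2:172555730-172556118 at the start of PDK1, averaged 29.3 to 44.9 CPM over the groups and differed by -0.01 between vehicle groups (95% interval -0.234 to 0.212). Of 10 tested peaks, 1 was called in the antagonist groups against estradiol, where 24.1% of all peaks were called. That peak, chr2:172394087-172394332, lies upstream of the gene. It had 3, 13 and 11 counts in all with fulvestrant, raloxifene and tamoxifen, against 56 with estradiol (log2 fold change -2.50, SE 0.438, edgeR adjusted p = 4.7e-06), and 1.57 CPM in fulvestrant replicate 4.

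KIT, the receptor for stem cell factor, had 4 peaks. Its leading peak, chr4:54658695-54658954, lies inside the gene, 689 bp from the start window. It was at 10.7 ± 3.10 CPM with fulvestrant, 14.5 ± 1.58 with raloxifene, 14.8 ± 1.81 with tamoxifen and 14.3 ± 1.22 with complete vehicle, and at 16.5 ± 2.38 with estradiol and 15.8 ± 1.46 with starved vehicle. The fulvestrant mean includes the shallow replicate 4, whose sum over all KIT peaks was 6.28 CPM. The antagonist groups lay below estradiol (-0.28 on the log2 scale, SE 0.108, edgeR adjusted p = 0.0482). That call was lost under 4 of 13 alternatives and without fulvestrant replicate 1 or 2, raloxifene replicate 1, 2 or 4, tamoxifen replicate 1 or 2 or estradiol replicate 1 or 3. A sparse peak downstream, chr4:54783468-54783671, was also lower (-1.02, SE 0.325, edgeR adjusted p = 0.0139), a call lost in replicates 3 and 4 alone (-0.54, adjusted p = 0.559) and without estradiol replicate 1 or 2. These were 2 of the 3 tested KIT peaks, in a comparison where 24.1% of all peaks were called, 13.9% lower. Between the vehicle groups 0 of the 3 tested KIT peaks were called by edgeR, and 0 had an unadjusted p under 0.05. Among all peaks 17.8% were called there, and 29.5% had an unadjusted p under 0.05.

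ALDH1A3 held both of the media calls, of 14 in the 7 genes, that were kept under all alternatives and left-out libraries. At chr15:100889464-100889669, inside the gene, accessibility was 15.4, 13.3, 9.52 and 6.28 CPM with fulvestrant, 13.5, 14.3, 12.0 and 10.8 with raloxifene, 13.3, 18.1, 8.87 and 10.8 with tamoxifen and 13.9, 13.7, 11.4 and 10.5 with complete vehicle. The starved libraries had 29.1, 22.2, 19.5 and 21.1 CPM with estradiol and 30.0, 25.5, 24.1 and 21.8 CPM with vehicle. Every complete library thus lay below every starved one. Of all tested peaks, 8.31% lay so between the vehicle groups and 4.24% between the antagonist groups and estradiol. At this site the log2 fold change was -1.03 between the vehicle groups (SE 0.151, edgeR adjusted p = 2.95e-07) and -0.83 between the antagonist groups and estradiol (SE 0.118, edgeR adjusted p = 7.36e-08). A second site inside the gene, chr15:100902554-100902754, stood at 11.9 ± 5.99 CPM with fulvestrant (shallow replicate 4 included), 13.6 ± 2.25 with raloxifene, 12.9 ± 1.16 with tamoxifen and 13.8 ± 1.44 with complete vehicle, against 24.7 ± 2.66 with estradiol and 23.4 ± 4.94 with starved vehicle. Its log2 fold changes in the same comparisons were -0.85 (SE 0.136) and -0.84 (SE 0.105) (edgeR adjusted p = 1.2e-06 and 7.89e-10). The calls against estradiol at both sites were kept as well. Estradiol against starved vehicle gave -0.16 (95% interval -0.426 to 0.107) and -0.02 (95% interval -0.257 to 0.222) at these sites.

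The start of ALDH1A3, in the window rich in GC boxes shown above, moved less. Its peak chr15:100879541-100879846 stood at 10.1 ± 1.60 CPM with fulvestrant, 14.2 ± 0.610 with raloxifene, 12.5 ± 1.64 with tamoxifen and 13.4 ± 1.38 with complete vehicle, and at 15.8 ± 2.31 with estradiol and 17.1 ± 3.71 with starved vehicle. The groups overlapped. The antagonist groups were lower than estradiol (-0.38, SE 0.115, edgeR adjusted p = 0.0106), a call lost in replicates 1 and 2 alone (-0.27, adjusted p = 0.226) and without estradiol replicate 3, and the vehicle groups differed by -0.30 without a call (SE 0.146, edgeR adjusted p = 0.16). Summed over its 15 peaks, the ALDH1A3 window held 76.9 ± 25.3 CPM with fulvestrant, 91.8 ± 4.95 with raloxifene, 90.9 ± 4.03 with tamoxifen and 92.2 ± 2.22 with complete vehicle, against 115.9 ± 3.90 with estradiol and 119.3 ± 0.872 with starved vehicle. The fulvestrant sums were 91.87, 91.11, 85.35 and 39.26 CPM, the last in the shallow replicate 4. Some of the 15 peaks have LRRK1 or LOC124903575 as nearest coding gene, and chr15:100919214-100919561 lies over the start of LRRK1. The peak chr15:100849624-100849848, with a mean of 14.99 CPM, lies over the start of GCAWKR. The sum is therefore not that of ALDH1A3 alone. The complete vehicle sums (90.5 to 95.4) lay below the starved vehicle sums (118.4 to 120.5).

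ALDH1A1, the related enzyme whose start had no peak near it, was higher in complete medium at a sparse upstream site. The peak chr9:72979385-72979622 had 3.56, 3.08, 2.75 and 6.28 CPM with fulvestrant, 2.48, 3.21, 1.98 and 2.18 with raloxifene and 1.83, 2.36, 1.36 and 1.49 with tamoxifen, against 0.500, 1.07, 0.340 and 0 with estradiol. The groups did not overlap, as at 1.36% of all tested peaks in this direction. The log2 fold change was 2.27 (SE 0.380, edgeR adjusted p = 1.83e-06), kept under every alternative and left-out library tried. The peak passed the count filter only through libraries of complete medium, where it is high, so its calls are not independent of the filter. Between the vehicle groups it was 2.00 ± 0.835 against 0.411 ± 0.360 CPM (1.84, SE 0.481, edgeR adjusted p = 0.00323), and that call was lost in each set of replicates alone and without the vehicle libraries whose labels conflict (1.52, adjusted p = 0.0872). Per kilobase of peak over each whole window, ALDH1A1 had 7.08 ± 2.10 CPM and ALDH1A3 24.3 ± 0.587 CPM in complete vehicle cells, and 3.43 ± 2.30 and 31.5 ± 0.230 CPM in starved vehicle cells. The ALDH1A3 window includes the peaks nearest to its neighbouring genes.

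**Figure D3:**
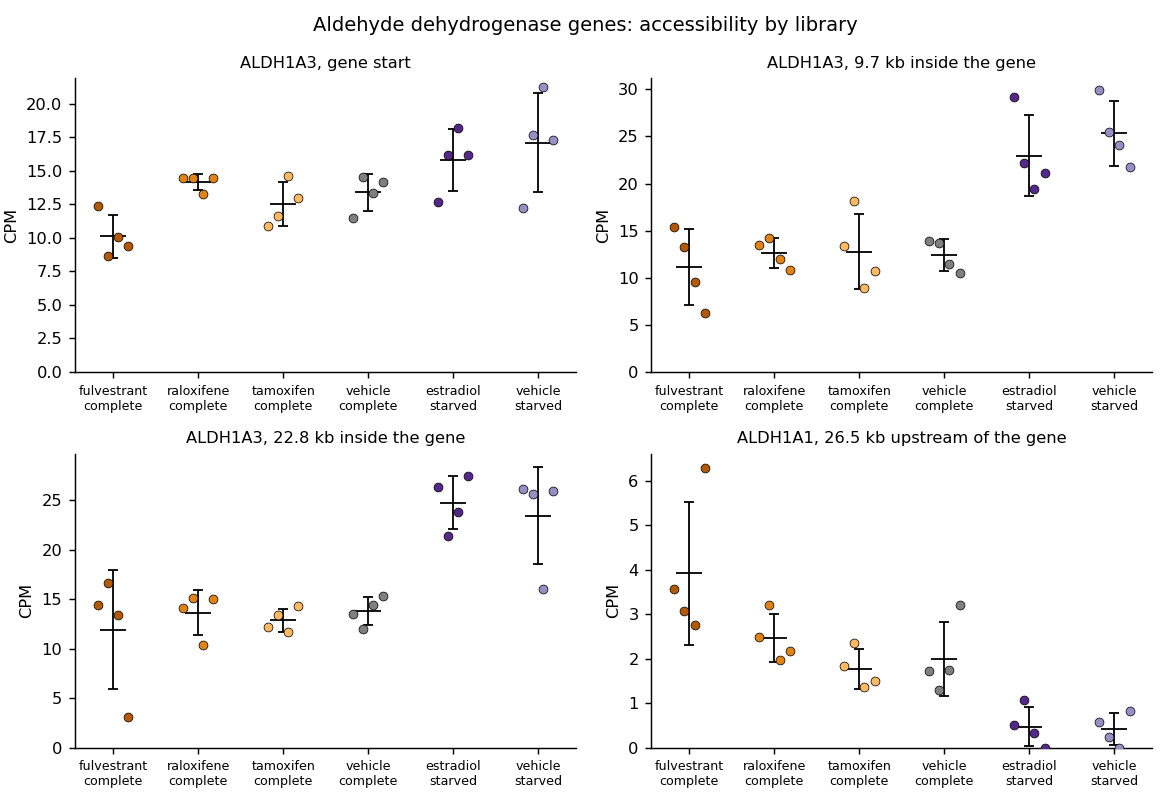
Accessibility (CPM, linear axis from 0) of 3 ALDH1A3 peaks (start and 2 inside the gene) and the upstream ALDH1A1 peak in the 24 libraries; points are replicates 1 to 4 from left to right, the bar is the mean and whiskers the SD. The sites inside ALDH1A3 average 11.1 to 13.8 CPM in the 4 groups of complete medium and 23.0 to 25.3 CPM in the 2 groups of starved medium, and the ALDH1A1 peak runs the other way.

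SOX9 had the peak with the highest mean CPM of all 114. The peak chr17:72120838-72121046, 78 bp from the gene's edge, stood at 36.5 ± 15.3 CPM with fulvestrant, 49.2 ± 1.81 with raloxifene, 51.7 ± 3.66 with tamoxifen and 47.3 ± 5.28 with complete vehicle, and at 47 ± 3.01 with estradiol and 42.9 ± 1.96 with starved vehicle. Without the shallow replicate 4 (14.1 CPM) the fulvestrant libraries had 38.9, 45.5 and 47.2 CPM. The vehicle groups differed there by 0.12 (95% interval -0.082 to 0.325) and estradiol from starved vehicle by 0.12 (95% interval -0.0845 to 0.318). Further from the gene, 3 of its 12 tested peaks were lower and 1 higher with vehicle in complete than in starved medium, where 9.91% of all peaks were lower and 7.93% higher. Each of these calls was lost without the vehicle libraries whose labels conflict (edgeR adjusted p = 0.256, 0.0668, 0.312 and 0.156 in order of position). The lower calls at chr17:72129453-72129727 and chr17:72146077-72146346 were lost under 6 and 5 of 13 alternatives. At chr17:72152465-72152665 the antagonist groups had 2.19, 3.21, 2.75 and 3.14 CPM (fulvestrant), 2.79, 2.77, 1.86 and 1.23 CPM (raloxifene) and 1.83, 1.73, 2.32 and 2.45 CPM (tamoxifen), against 5.00, 6.39, 4.17 and 3.86 CPM with estradiol. They did not overlap, as at 4.24% of all tested peaks in this direction (-1.06, SE 0.197, edgeR adjusted p = 1.75e-05, kept under every alternative and left-out library tried). In vehicle cells the site averaged 2.32 ± 0.508 CPM with complete medium, against 4.32 ± 0.116 CPM with starved medium (-0.88, SE 0.266, edgeR adjusted p = 0.012), a call lost in each set of replicates alone. The higher peak, chr17:72142700-72142900, had 45 counts in complete and 10 in starved vehicle cells (1.97, SE 0.580, edgeR adjusted p = 0.0099), a call lost in replicates 3 and 4 alone and without complete vehicle replicate 3 or starved vehicle replicate 1. With estradiol it had 48 counts and a log2 fold change of 1.93 against starved vehicle (SE 0.574, edgeR adjusted p = 0.116), and without estradiol replicate 2, the lowest at 0.213 CPM, it was called at 2.29 (adjusted p = 0.0127).

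Across the 7 genes other than PROM1, with vehicle, 3 peaks were higher and 11 lower in complete than in starved medium, 19.7% of 71, against 17.8% of all peaks, where 7.93% were higher and 9.91% lower. The median log2 fold change of the 71 was -0.09, against 0.02 over all peaks. In the antagonist groups against estradiol, 2 were higher and 16 lower, 25.4% against 24.1% of all peaks, of which 10.2% were higher and 13.9% lower, with a median of -0.21 against 0.01. For estradiol against complete vehicle, 11 of the 71 were higher and 3 lower (19.7%, against 16.6% of all, 9.39% higher and 7.24% lower). The totals of both directions were near those of all peaks in the first 2 comparisons, but the split differed: 4.23% of the 71 were higher and 15.5% lower between the media, and 2.82% higher and 22.5% lower in the antagonist groups. A lean to lower was not particular to these genes. Between the media, a wider progenitor list had 6.07% higher and 12.1% lower, and blood markers 5.71% and 10.0%. Basal and mesenchymal markers had 9.86% and 10.6%, endothelial markers 7.69% and 7.69%, and luminal markers 25.7% and 3.36%. These differences in balance were not tested. Without the vehicle libraries whose labels conflict, 5 peaks of the 7 genes were called between the media, 0 higher and 5 lower, of the 79 that passed the filter in that fit. The share of all peaks called in that fit is not given here, so this split has no background beside it. The peaks not called between the media ranged from -1.06 to 1.09, both in the ITGA6 window.

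**Figure D4:**
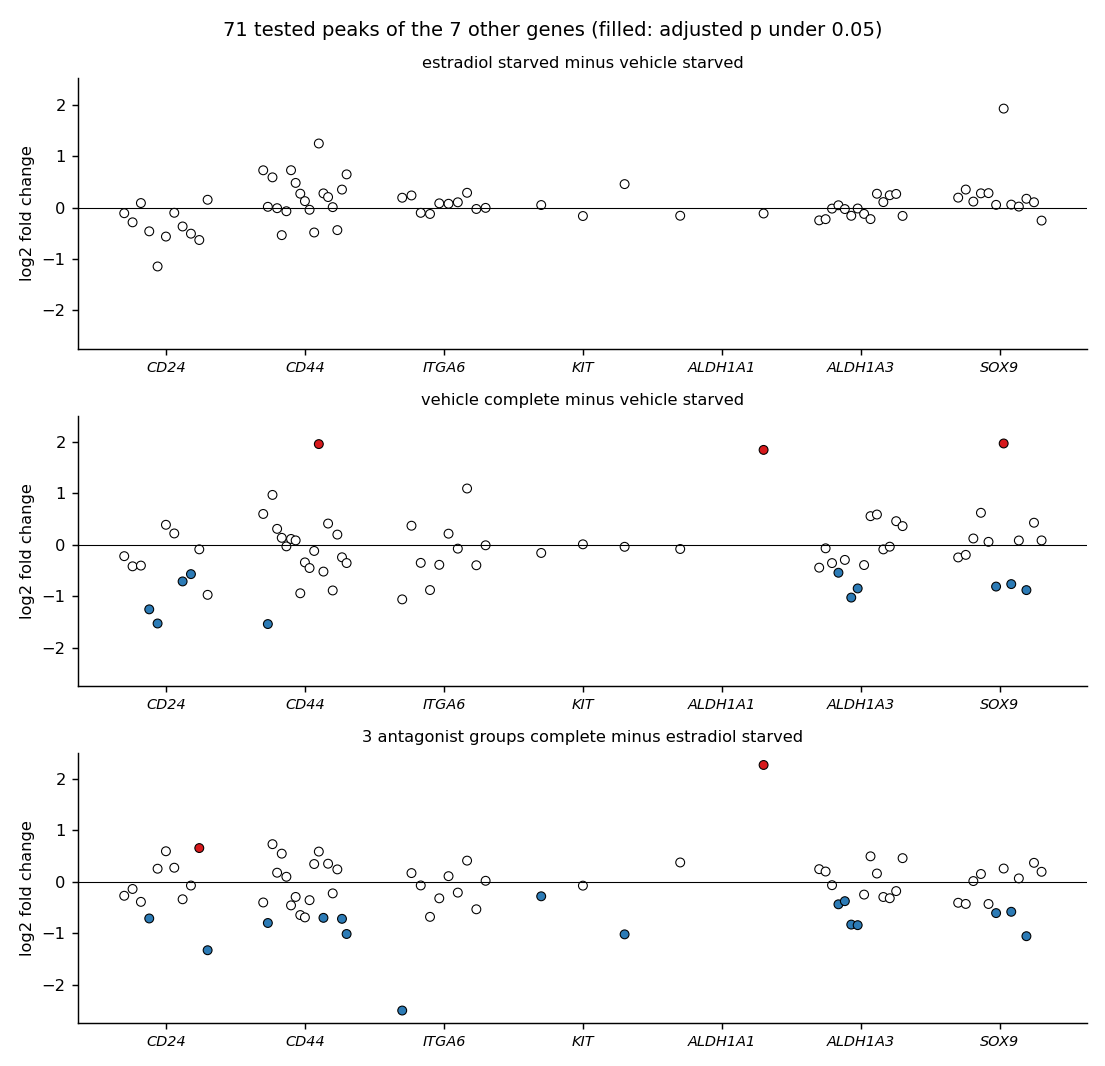
Log2 fold change of the 71 tested peaks of the 7 genes other than PROM1, each point a peak, ordered by position within its gene; red and blue points were called higher and lower by edgeR (adjusted p under 0.05) and white ones were not. No point is filled for estradiol, 3 are red and 11 blue between the vehicle groups, and 2 are red and 16 blue for the antagonist groups against estradiol.

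The 32 genes of a wider list of mammary stem and progenitor genes had 445 tested peaks. With vehicle in complete against starved medium 27 were higher and 54 lower (18.2% against 17.8% of all peaks, median -0.00359), and in the antagonist groups against estradiol 36 were higher and 76 lower (25.2% against 24.1%). With estradiol 3 rose and 0 fell (0.674%, median -0.02, against 0.835% of all peaks). They lie near LGR6, a receptor for R-spondins (2.76, SE 0.456, edgeR adjusted p = 1.66e-05), JAG1, a Notch ligand (1.74, SE 0.409), and HES1, a target of Notch signalling (0.44, SE 0.0978). Of the luminal epithelial markers, 17 of 268 peaks rose and 1 fell with estradiol, 6.72% against 0.835% of all peaks. With vehicle, 69 were higher and 9 lower in complete than in starved medium, 25.7% and 3.36%, against 7.93% and 9.91% of all peaks. With estradiol 2 of 142 basal and mesenchymal peaks rose, both near KRT14 and also within the window of KRT19, and 0 of 70 blood and 0 of 39 endothelial peaks were called by edgeR.

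In complete medium, 1 h of an antagonist changed none of the 98 peaks past the threshold. With fulvestrant, raloxifene and tamoxifen 0 were called by edgeR, also without the vehicle libraries whose labels conflict, and 0 by DESeq2. The share of all peaks called was 0.00%, 0.000638% and 0.00%. At an unadjusted p under 0.05 there were 8, 3 and 2 of the 98, against 3.96%, 3.81% and 4.13% of all peaks. At the leading PROM1 site fulvestrant stood at 9.47 ± 2.58 CPM against 13.95 ± 3.44 CPM with vehicle, and the fitted log2 difference was -0.41 (95% interval -0.766 to -0.0632, edgeR adjusted p = 1). Raloxifene differed there by -0.11 (95% interval -0.417 to 0.199) and tamoxifen by -0.06 (95% interval -0.377 to 0.252). The vehicle libraries of complete medium are those in which the site was chosen as high. At the second site, chr4:16005712-16005985, the values were -0.54 with fulvestrant, -0.44 with raloxifene and -0.51 with tamoxifen, with intervals of -1.07 to -0.0054, -0.926 to 0.0357 and -1.01 to -0.0107. The 3 antagonists share the vehicle libraries, which are also those that chose PROM1 as high. The values at this second PROM1 site are thus not independent of the choice either. At the ALDH1A3 site chr15:100889464-100889669 they gave 0.07, 0.03 and 0.01, with intervals from -0.335 at the lowest to 0.43 at the highest.

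The antagonists could also be set against each other at the same dose and time, in 3 pairs over the 98 peaks. None was called by edgeR or DESeq2 (smallest edgeR adjusted p 0.934), and 7 peaks for fulvestrant against raloxifene, 8 for fulvestrant against tamoxifen and 4 for raloxifene against tamoxifen had an unadjusted p under 0.05. Over all peaks, 5.16%, 5.27% and 3.92% had an unadjusted p under 0.05 in these pairs, and 0.000638%, 0.00% and 0.00% were called by edgeR. At the leading PROM1 site fulvestrant differed from raloxifene by -0.31 (95% interval -0.659 to 0.049) and from tamoxifen by -0.35 (95% interval -0.711 to 0.00739), and raloxifene from tamoxifen by -0.05 (95% interval -0.363 to 0.27). The p-values over the threshold do not show that the compounds act alike.

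**Figure D5:**
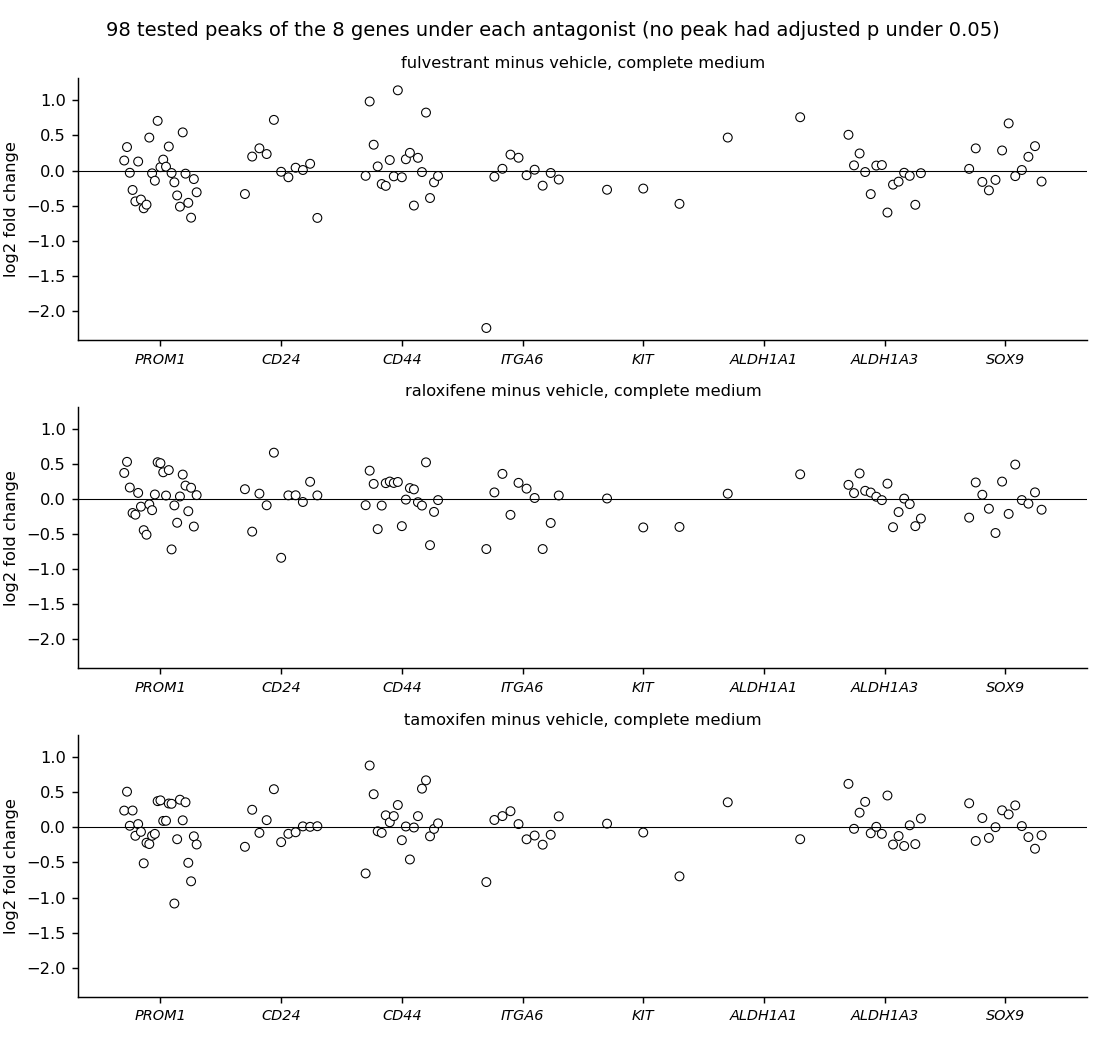
Log2 fold change of the 98 tested peaks of the 8 genes with each antagonist against vehicle in complete medium, each point a peak, ordered by position within its gene. No peak was called; the point furthest from 0 is the sparse upstream ITGA6 peak with fulvestrant at -2.25, which has 3 counts with fulvestrant against 21 with vehicle.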

How the data were processed

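Counts of reads or fragments per peak were deposited by the authors for 24 libraries in 1 peak set on hg38, as whole numbers with no normalization. Per the submitters' processing notes, the tools were Bowtie2 2.4.4, cutadapt 1.8.1 and SAMtools 1.9. Not given in the sources used here are the peak caller, the counting tool, and whether duplicates were removed or cut sites shifted, either of which could change counts in narrow peaks.

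All 24 libraries entered 1 fit with 6 group means (edgeR 4.0.16 in R 4.3.3, TMM scaling, glmQLFit with legacy=FALSE and robust=TRUE). Peaks were kept by filterByExpr (minimum count 10, minimum total 15), which left 156745, and quasi-likelihood p-values, all two-sided, were adjusted by Benjamini-Hochberg over these at a threshold of 0.05. SEs were approximated as the log2 fold change divided by the square root of its F. Because deeper libraries weigh more in the fit, a fitted fold change need not equal the ratio of the mean CPM. CPM uses TMM-scaled totals and logs a prior count of 2. Intervals cover 95%. DESeq2 1.42.0 was an alternative. The fit was tested on simulated counts, with 50 peaks above the median abundance changed at each size in the estradiol group. It recovered 100% of the 4-fold and 2-fold rises, 62% of the 1.5-fold rises and 70% of the falls to 0.5. Changes of small size can thus be missed.

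The member genes, lists and alternatives were chosen with earlier results of these data known. The tested PROM1 peaks were named (those not called by range) and, per other gene, the start peak, the peak of highest mean CPM and the peaks of smallest p, with values for those called or at the start. Some further called peaks of CD24 and SOX9 were named after their values were seen. Gene intervals came from RefSeq (GRCh38.p14). No 2 libraries of a group looked like repeats of each other: over 36 pairs, chi-square divided by its degrees of freedom was 1.74 to 3.81.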

Additional observations from a re-analysis of the deposited data

Results flagged for a closer look

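Among the 108 groups of 4 libraries at 18 peaks named above, 9 had 1 library set apart from the other 3 by Dixon's test at 95%, where chance flags about 1 in 20. At the leading PROM1 site (chr4:16002365-16002791), starved vehicle replicate 4 had 1.27 CPM and the others 0.231 to 0.401. At the ALDH1A3 start, raloxifene replicate 3 had 13.3 CPM and the others 14.5. At the ALDH1A3 site chr15:100902554-100902754, starved vehicle replicate 3, a shallow library, had 16.04 CPM and the others 25.6 to 26.2. At the CD24 peak chr6:107021947-107022160, starved vehicle replicate 2 had 3.11 CPM and the others 1.09 to 1.20. At the CD44 peak chr11:35275536-35275736, fulvestrant replicate 4 had 7.85 CPM and the others 4.58 to 5.12, and complete vehicle replicate 4 had 4.09 CPM and the others 5.84 to 6.11. At the ITGA6 peak chr2:172394087-172394332, fulvestrant replicate 4 had 1.57 CPM and the others 0 to 0.123. At the PDK1 start in the ITGA6 window, complete vehicle replicate 2 had 31.7 CPM and the others 42.1 to 44.1, and starved vehicle replicate 3 had 32.1 CPM and the others 41.1 to 43.0. Fulvestrant replicate 4 and starved vehicle replicate 3, the shallow libraries, account for 4 of the 9.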

How the results depend on the processing

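The count of 1 peak for estradiol was 1 under each alternative and 1 to 2 when 1 library was left out, with 2 without estradiol replicate 2 (SOX9). For vehicle in both media, the 14 calls of the 7 genes became 9 above the median abundance, 7 and 4 in replicates 1 and 2 and replicates 3 and 4 alone, 5 without the libraries whose labels conflict, 9 with windows of 10 kb and 10 to 13 with 1 library left out. For the antagonist groups against estradiol, 24 became 14 and 13 in the sets of replicates, 13 with 10 kb windows and 16 to 24 with 1 library left out. For estradiol against complete vehicle, 19 became 9 and 7 in the sets, 9 without the conflicting labels, 12 with 10 kb windows and 13 to 19 with 1 library left out. Fits on fewer libraries or peaks have fewer chances to call, and the cause of other shifts was not tested. The log2 ratio of mean CPM at the PROM1 site between media, 4.61, ran from 4.35 to 5.38 with 1 library left out. Antagonists and their pairs stayed at 0 calls throughout. Of 1386 values of single called peaks, 1182 kept their call, 204 lost it and 0 changed direction. Under all alternatives and left-out libraries that gave a value, 1 of 1 call held for estradiol, 2 of 14 for the media, 9 of 24 for the antagonist groups against estradiol and 4 of 19 for estradiol against complete vehicle. The 1 call for estradiol is the leading PROM1 site, tested against the starved vehicle libraries that chose it as low. The 4 kept against complete vehicle include the PROM1 sites chr4:16002365-16002791 and chr4:16005712-16005985, tested against libraries that chose the gene. How well these PROM1 calls held is not independent of the choice. Some sparse peaks were filtered out under some alternatives and gave no value. Replicate numbers are shared between groups, and correlations of same-numbered libraries ran from -0.128 to 0.126. Each comparison had at least 1 pair under 0.1, so the criterion for pairing, every pair over 0.1, was not met, although the highest pair passed 0.1 in 4 of 6 comparisons. With the replicate number as a block the counts were 1, 14, 26, 23, 0 and 0 in the order above, and for estradiol against complete vehicle 4 of 4 numbers correlated best with their own (0.0598 to 0.108, others at most 0.0326), a hint from the data and not the design. Depth limits fulvestrant values most, since replicate 4 has 434598 counts.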
